A study of Homo sapiens with 1 sample.

Results

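The miR-320 family (hsa-miR-320a, hsa-miR-320b, hsa-miR-320c, hsa-miR-320d and hsa-miR-320e, written below without the prefix) and hsa-miR-484 were measured in DLD-1 cells, an established human colorectal carcinoma line. These 6 miRNAs were chosen by name, with no threshold on their values, from the 2549 human miRNAs on the array. Earlier results of these data were known when they were chosen. The cells carried the negative control plasmid pLVX-NC, and their RNA was labelled with Cy3 and hybridised to 1 array with 1 colour. Arrays with circLONP2 overexpression or depletion were not analysed here, so the values describe the control cells alone. There was no replicate, and every SD or standard error (SE) given is a spread between spots of 1 array, which leaves out the variation between cultures. Each SE was built from the spots within a probe, so it also leaves out the difference between the probes of a miRNA. An SD given over all spots of a miRNA includes that difference. As a check of the label, 5 of 5 epithelial marker miRNAs of the miR-200 family carried the software's Detected flag, against 56.8% of all human miRNAs. Their mean brightness ran from 18.34 for miR-200a-3p, with 10 of 20 spots well above background, to 3024 for miR-141-3p, with a median of 81.23. Of the 4 intestinal markers, miR-215-5p (45.87) and miR-375 (34.76) were detected and miR-192-5p and miR-194-5p were not. Of 7 markers of other cell types 4 were detected, with miR-124-3p at 77.2 and miR-145-5p at 36.98, so apart from miR-141-3p the levels of the epithelial markers and of these markers overlapped.

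Most miRNAs are cut out of a long primary transcript by the nuclear enzyme Drosha with its partner DGCR8, and the released hairpin is then trimmed by Dicer in the cytoplasm. The study from which the array comes asks how circLONP2 and the helicase DDX1 act on the Drosha step of the primary transcript of miR-17. miR-320a is known for another route. Its hairpin begins at a transcription start site, carries a cap and goes to Dicer without a cut by Drosha, and miR-484 is likewise counted among the miRNAs made without DGCR8. Whether the hairpins of miR-320b to miR-320e take the same route is not given in the sources used here. The array reads mature miRNA, so none of its values measures a processing step.

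Mature sequences from RefSeq (GRCh38.p14) were matched for 5 of the 6 members, all except miR-320a. They are shown because the miR-320 members are near copies that differ at the ends. Each is written 5′ to 3′ with the seed, bases 2 to 8, which pairs with target mRNAs, in capitals. miR-4429, the only further miRNA of the array that has a sequence in that table and the seed of miR-320b, is shown beside them.
miR-320b: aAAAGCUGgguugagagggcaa
miR-320c: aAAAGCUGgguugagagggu
miR-320d: aAAAGCUGgguugagagga
miR-320e: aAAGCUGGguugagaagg
miR-4429: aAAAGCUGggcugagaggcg
miR-484: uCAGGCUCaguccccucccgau

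miR-320b, miR-320c, miR-320d and miR-4429 shared the seed AAAGCUG. The annotated miR-320e starts 1 base later, so its seed read AAGCUGG and no other human miRNA of the array with a RefSeq sequence had it. The 4 miR-320 sequences held the same run of 15 bases, aaagcuggguugaga, and they fell from 22 bases in miR-320b to 20 in miR-320c, 19 in miR-320d and 18 in miR-320e. Counted from 1 at the 5′ end of miR-320b, with miR-320b's base first, miR-320c differed by C20U, miR-320d by G19A and miR-320e by G17A. miR-4429 differed by U11C, G19C and C20G. The run with 1 more A in front, aaaagcuggguugaga, stood in 7 of the 1562 human hairpins held in the RefSeq table used here, and these 7 were the hairpins of miR-320b, miR-320c, miR-320d and miR-320e. The MIR320E hairpin was among them, so the base that its annotated mature form lacks is present in the precursor. The hairpin of miR-320a has no sequence in that table, so it could not be searched for the run.

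The genes of the miR-320 members lie apart. miR-320b comes from MIR320B1 (mature form at chr1:116671787-116671808, + strand), outside other annotated genes, and from MIR320B2 (chr1:224257049-224257070, - strand), within the span of NVL. miR-320c comes from MIR320C1 (chr18:21683559-21683578, + strand) in the span of ABHD3 and from MIR320C2 (chr18:24321716-24321735, + strand) in that of OSBPL1A. miR-320d comes from MIR320D1 (chr13:40727828-40727846, - strand) and MIR320D2 (chrX:140926172-140926190, - strand), both outside other genes, and miR-320e from MIR320E (chr19:46709294-46709311, - strand) in the span of PRKD2. The table gives gene spans and not exons, so exonic and intronic positions were not told apart. In all 7 of these hairpins the mature sequence lies on the 3′ side. A signal for miR-320b, miR-320c or miR-320d cannot be assigned to 1 of the 2 genes that encode it.

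The genes of miR-320a and miR-484 sit close to the edge of a protein-coding gene. Between the MIR320A hairpin and POLR3D, which encodes a subunit of RNA polymerase III, there are 95 bases. The MIR484 hairpin (chr16:15643294-15643372, + strand) ends 9 bases before the annotated start of NDE1, a centrosomal protein gene on the same strand, at position 15643382. It is shown whole, with the mature miR-484 (chr16:15643301-15643322) in capitals, since it is the promoter-side hairpin for which the table holds a sequence. The mature sequence occupies bases 8 to 29 of the 79, on the 5′ side.
MIR484 hairpin: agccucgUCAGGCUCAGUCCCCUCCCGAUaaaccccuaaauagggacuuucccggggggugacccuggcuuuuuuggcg

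Each member was read by 20 spots, 10 for each of 2 probes. All 6 carried the software's Detected flag, against 56.8% of all human miRNAs, and all 6 had every one of their 20 spots well above background, against 36.8% of all human miRNAs. Brightness is given in scanner units after the software's subtraction of local background, with spots marked as outliers left out. Brightness depends on the probe as well as on the RNA, and the array names the probes without their sequences, so an order of brightness is not an order of amount.

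miR-320a was the brightest member. Its first probe ran from 1295 to 1409 (median 1348) and its second from 1415 to 1682 (median 1555), so no spot of one probe reached those of the other. The mean over both was 1449 ± 118.2 (SD over 20 spots). miR-320b, whose RefSeq sequence has 22 bases, followed with 1163 to 1293 (median 1239) for the first probe and 1357 to 1472 (median 1414) for the second, and a mean of 1328 ± 104.2 (SD over 20 spots). In both miRNAs the second probe was brighter by 0.2 on the log2 scale.

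The shorter members miR-320c and miR-320d were close to each other. miR-320c ran from 902.8 to 1062 (median 1001, 9 spots) on its first probe and from 1046 to 1087 (median 1078, 7 spots) on its second, with a mean of 1029 ± 53.79 (SD over 16 spots). The 4 remaining spots had been marked as outliers. miR-320d ran from 981.3 to 1293 (median 1218) and from 935.9 to 1181 (median 1105), with a mean of 1116 ± 118.3 (SD over 20 spots). The whole range of miR-320c lay between 902.8 and 1087 and overlapped that of miR-320d.

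miR-320e, the shortest annotated member and the one with the shifted start, was clearly dimmer than the others. Its first probe ran from 197.7 to 363.3 (median 339.5, 10 spots) and its second from 446.8 to 491.2 (median 453.4, 8 spots), with 2 spots of the second marked as outliers and left out. The mean was 378.2 ± 92.29 (SD over 18 spots). Its probes differed by 0.61 on the log2 scale, more than those of any other member, where the difference ran from 0.08 to 0.2. The median difference between the brightest and the dimmest probe was 0.36 over the 1447 detected human miRNAs with 2 or more probes. Outside columns 1 to 41 of the array, where the dim spots of miR-320e lay, its probes differed by 0.41, against a median of 0.33 over 1446 miRNAs.

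miR-484, the member outside the miR-320 family, was far dimmer. The first probe ran from 24.12 to 34.47 (median 29.02) and the second from 23.87 to 32.3 (median 26.85), so both covered the same range. The mean was 28.61 ± 3.599 (SD over 20 spots). The 1000 negative control spots had their 99th percentile at 12.5, and miR-484 exceeded it 2.289-fold. Without the brightest of the 7 control probes the percentile dropped to 5.58 and the ratio became 5.125. For the miR-320 members the ratio to the value of 12.5 was between 30.25 and 115.9.

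**Figure D1:**
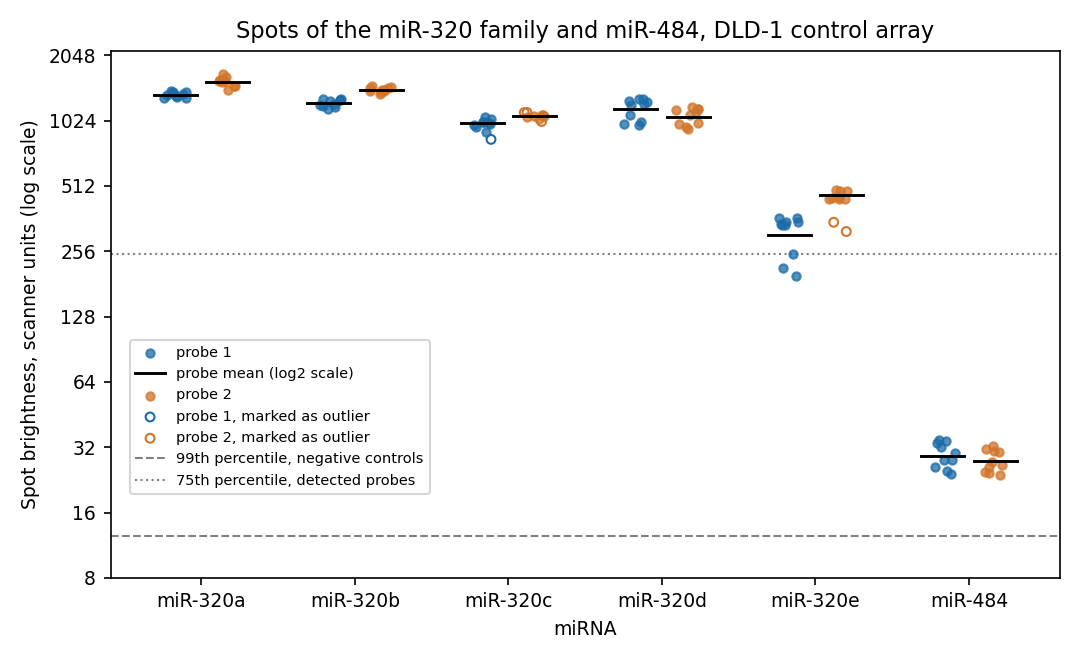
Brightness of every spot (vertical axis, scanner units, log scale) of the 6 miRNAs (horizontal axis) on the DLD-1 control array, by probe; open circles are spots marked as outliers, black bars the mean of a probe without them, and the dashed line marks 12.5, the negative controls' 99th percentile, and the dotted line 248.8, the 75th percentile over detected probes. The spots of miR-320a to miR-320d lie above those of miR-320e, and the 20 spots of miR-484 lie between 23.87 and 34.47.

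With the brightness at the 75th percentile (248.8, over 2567 detected probes) set to 0, the log2 signals were 2.54 for miR-320a (SE 0.013), 2.41 for miR-320b (SE 0.011), 2.16 for miR-320d (SE 0.033), 2.05 for miR-320c (SE 0.012), 0.59 for miR-320e (SE 0.054) and -3.13 for miR-484 (SE 0.04). Subsequently, neighbours in this order were compared. miR-320a and miR-320b differed by 0.13 (SE 0.017) on the log2 scale, or 1.09-fold, which is less than the 0.2 between the 2 probes of either, and their probe means overlapped. miR-320b exceeded miR-320d by 0.25 (SE 0.035), with no overlap of probe means but with overlapping spots. miR-320d and miR-320c differed by 0.1 (SE 0.035), with overlapping probe means. Neither the pair of miR-320a and miR-320b nor that of miR-320d and miR-320c therefore differed beyond the spread between probes.

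The steps down to miR-320e and to miR-484 were larger than the spread between probes. miR-320c was 2.76-fold brighter than miR-320e, a log2 difference of 1.46 (SE 0.055), and their spots did not overlap. miR-320a was 3.86-fold brighter than miR-320e (log2 difference 1.95, SE 0.056). These SEs leave out the log2 difference of 0.61 between the probes of miR-320e. Between miR-320e and miR-484 the log2 difference was 3.72 (SE 0.068), and between miR-320a and miR-484 it was 5.67 (SE 0.042), or 50.9-fold. miR-320a, known to be made without a cut by Drosha, and miR-484, counted as made without DGCR8, stood at opposite ends of this order. It is an order of brightness across different probes and not of amount. No test between conditions was possible with 1 array, and since the miR-320 sequences are near copies, each probe may also bind other members, which was not tested.

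Among the 1448 detected human miRNAs, ranked by log2 signal, miR-320a was 59, miR-320b 68, miR-320d 91, miR-320c 98, miR-320e 212 and miR-484 975 from the brightest. The median percentile of the 6 members was 93.5. miR-320a to miR-320d were thus among the 98 brightest, and miR-484 was in the lower part, at percentile 32.7. The miRNAs most like the members in level were the 2 next above and the 2 next below each. Around miR-320a these were miR-1275 and miR-4800-5p above, and miR-4698 and miR-4721 below. Around miR-320b these were miR-6772-5p and miR-3934-5p above, and miR-622 and miR-7110-5p below. Around miR-320d these were miR-6132 and miR-5699-5p above, and miR-378a-3p and miR-8055 below. Around miR-320c these were miR-3117-3p and miR-1268b above, and let-7b-5p and miR-6724-5p below. Around miR-320e these were miR-7152-3p and miR-4756-3p above, and miR-4787-5p and miR-1247-3p below. Around miR-484 these were miR-4649-3p and miR-373-5p above, and miR-549a and miR-4701-5p below. All 24 lay within 0.052 of their member on the log2 scale. With 1 array this likeness is one of level only.

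**Figure D2:**
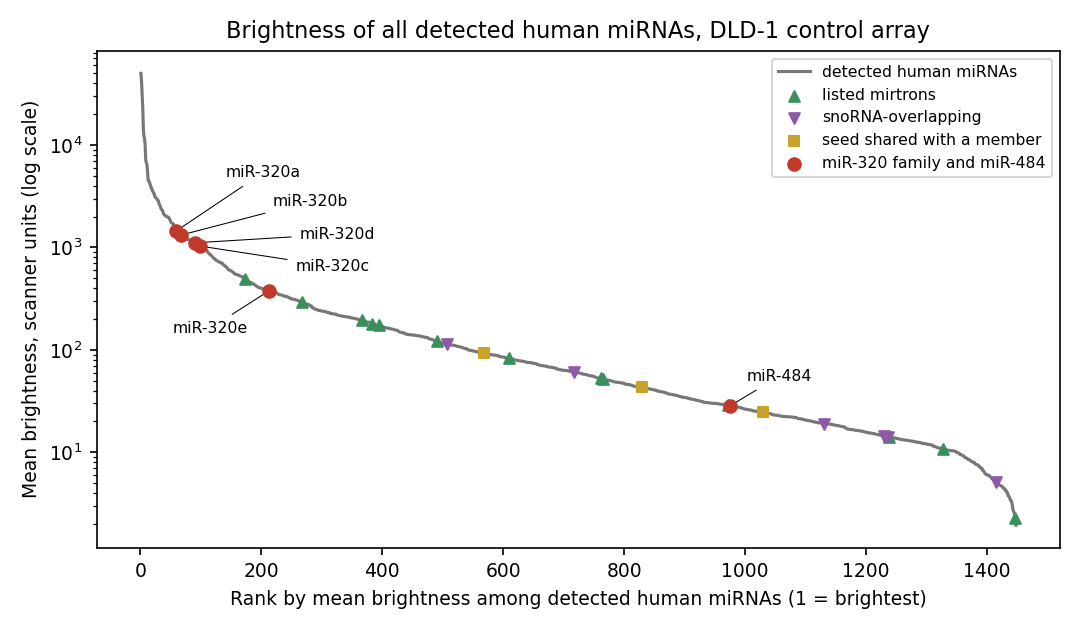
Brightness averaged on the log2 scale (vertical axis, scanner units, log scale) against rank by that average (horizontal axis, 1 = brightest). Drawn are the 1448 detected human miRNAs of the DLD-1 control array. Where the probes of a miRNA differ, this average lies below its mean brightness in the text. Circles are the miR-320 family and miR-484, and triangles pointing up the listed mirtrons. Triangles pointing down are miRNAs that overlap a snoRNA, and squares miRNAs that share a seed with a member. miR-320a to miR-320d lie within the top 98 ranks and miR-484 lies at rank 975.

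Next, spots of the same probe were compared by their place on the array, whose 164 columns were divided at column 41 after the spots had been seen. Of the 12 member probes, all 12 were dimmer on average in columns 1 to 41 than in the others, but by different amounts. For miR-320e the first probe gave 197.7 to 248.0 in columns 1 to 41 (3 spots) and 336.7 to 363.3 elsewhere (7 spots), a log2 difference of -0.67 (SE 0.098). Its second probe gave 315.6 to 348.2 (2 spots, both those marked as outliers) against 446.8 to 491.2 (8 spots), a difference of -0.48 (SE 0.074). For neither probe did the spots of the 2 areas overlap. The dim spots of miR-320e were thus the ones on that side of the array.

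The other miR-320 members showed smaller differences between the same columns. For miR-320d they were -0.31 (SE 0.036) and -0.2 (SE 0.048) for the first and second probe, for miR-320c -0.21 (SE 0.055) and -0.08 (SE 0.023), for miR-320a -0.05 (SE 0.023) and -0.1 (SE 0.036), and for miR-320b -0.07 (SE 0.021) and -0.05, the last with 1 spot in columns 1 to 41. Those of miR-484 were -0.09 (SE 0.125) and -0.21 (SE 0.067). The median over all 1543 probes with every spot well above background and at least 2 spots on each side was -0.23, and 91.8% of them were dimmer in columns 1 to 41, so the direction was that of the array as a whole. The first probe of miR-320e was at percentile 10.8 of these probes and the first probe of miR-320a at percentile 82.4. Spots in columns 1 to 41 were also marked as outliers more often, 7.61% of 12678 against 2.88% of 38302.

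The distance between members therefore moved with the part of the array that was read. With outlier spots kept, miR-320e was 5.18-fold dimmer than miR-320a in columns 1 to 41 and 3.66-fold dimmer elsewhere. miR-320d was 1.41-fold dimmer than miR-320a in columns 1 to 41 and 1.24-fold elsewhere, whereas the fold between miR-320a and miR-320b was 1.09 and 1.1. The median SD between spots of a member probe was 0.069 on the log2 scale, against 0.147 over the 3263 probes of detected human miRNAs. Both values leave outlier spots out. With outlier spots kept the member value was 0.115, which is not comparable with the 0.147. The SD of a member probe ranged from 0.019 for the second probe of miR-320c to 0.336 for the first probe of miR-320e. The members were mostly brighter, with a median brightness of 1073 against 62.84 for detected human miRNAs. The probes of the dim miR-484 had SDs of 0.192 and 0.168. How far brightness accounts for the lower SD was not tested.

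**Figure D3:**
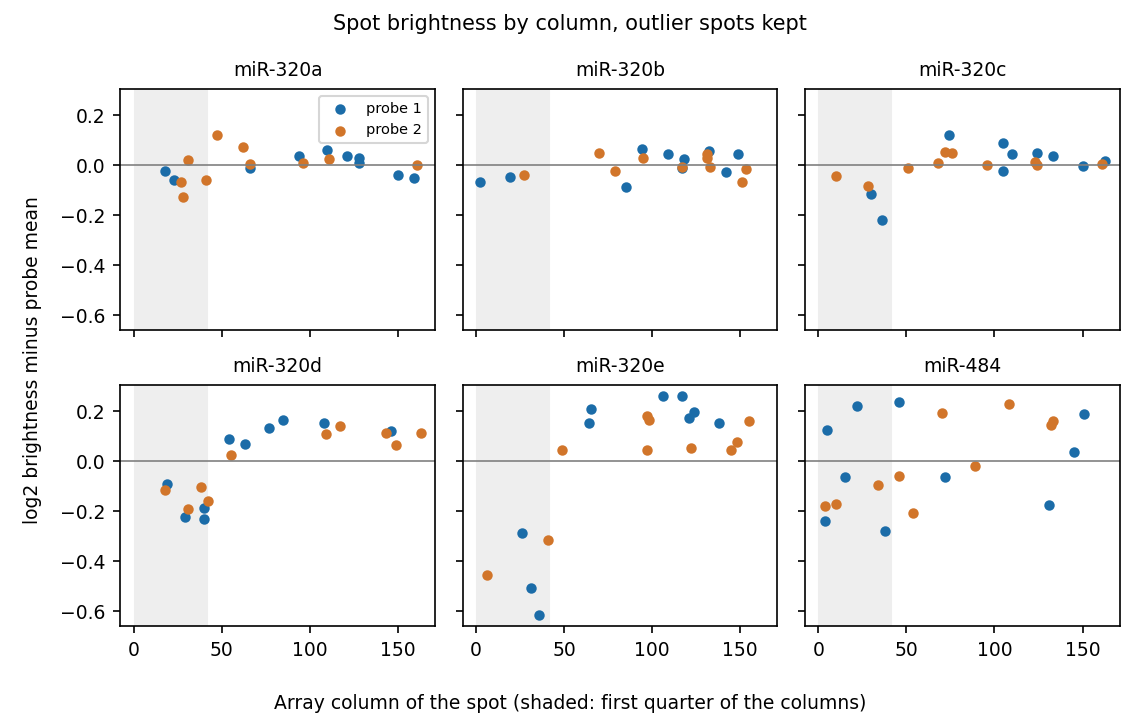
Log2 brightness of each spot minus the mean of its probe (vertical axis) against the array column of the spot (horizontal axis, columns 1 to 41 shaded), 1 panel for each of the 6 miRNAs, with outlier spots kept. All 5 miR-320e spots in the shaded columns lie below those of the same probe elsewhere, and the spots of miR-320a and miR-320b stay near 0.

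Meanwhile, the normalised log2 values that the authors deposited for the same array were read. They were 9.33 for miR-320a, 9.08 for miR-320b, 8.67 for miR-320d, 8.49 for miR-320c, 6.98 for miR-320e and 3.08 for miR-484, against a lowest value of 2.32 in the table. The order was the same as that of mean brightness. The distances were wider. miR-320a and miR-484 were 6.25 apart in the deposited values and 5.66 apart in the log2 of the scanner's total signal, and miR-320a and miR-320b 0.25 and 0.13 apart. Relative to the log2 total signal the deposited value was higher by 0.27 for miR-320a and lower for miR-484 (-0.31).

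The miRNAs with the seed of a member were dimmer than every miR-320 member. The mean of miR-4429 was 93.93 ± 13.1 (SD over 19 spots), which put it 3.84 (SE 0.022) below miR-320b on the log2 scale, or 14.3-fold dimmer, and 4.05-fold below miR-320e. The seed of miR-484, CAGGCUC, was shared by miR-3155a and miR-3155b, with means of 43.87 ± 8.325 and 24.77 ± 3.683 (SD, 20 spots for each). The first was above and the second below the 28.61 of miR-484, with overlapping spots in both cases. All 3 were detected with 20 of 20 spots well above background.

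miR-17, whose Drosha step the study follows, was near miR-484 in brightness. miR-484 exceeded miR-17-5p by 0.12 on the log2 scale (SE 0.056) and lay below miR-17-3p (-0.6, SE 0.059), with overlapping probe means in both cases. The probes of miR-17-3p differed by 1.36 on the log2 scale, so its level depends on the probe. The mean of miR-17-5p was 2.103-fold over the negative controls' 99th percentile, as near to background as miR-484.

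Other miRNAs with an unusual route were taken from lists of names. Mirtrons are hairpins made by splicing in place of Drosha, and 13 of the 15 listed mature mirtrons (86.7%) were detected, against 56.8% of all human miRNAs, and 9 (60.0%) had all spots well above background, against 36.8%. The 15 include both arms of 7 hairpins, and the 5p arm was brighter in 6 of these 7. The detected ones include miR-1227-3p at 11.25 and miR-1236-3p at 3.608, both below the control percentile of 12.5. These had 0 and 1 spots well above background. The median over the detected ones was the 104.7 of miR-1237-5p, whose probes differed by 3.77 on the log2 scale and which had 11 of 20 spots well above background. The brightest was miR-1229-5p at 486.8 ± 13.12 (SD over 20 spots), below the 4 brightest miR-320 members. Of the 7 listed miRNAs that overlap a snoRNA, 6 (85.7%) were detected, with a median brightness of 17.17. Only miR-664b-5p and miR-1291 had all 20 spots well above background, a share of 28.6% that is below the 36.8% of all human miRNAs. The count of 6 fell to 3 when a share of at least 0.5 of a probe's spots had to be well above background. miR-451a, a blood miRNA cut by Drosha but not by Dicer, was not detected and had 0 of 20 spots well above background.

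The order of the 6 members was the same under the 5 alternative ways of processing that could change it, all of which read spots of the same array. The signal of miR-320a relative to the 75th percentile ranged from 2.29 to 4.33 and that of miR-484 from -3.14 to -1.34. The difference between miR-320d and miR-320c was 0.09 to 0.18, for a pair that did not differ beyond the spread between probes.

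**Figure D4:**
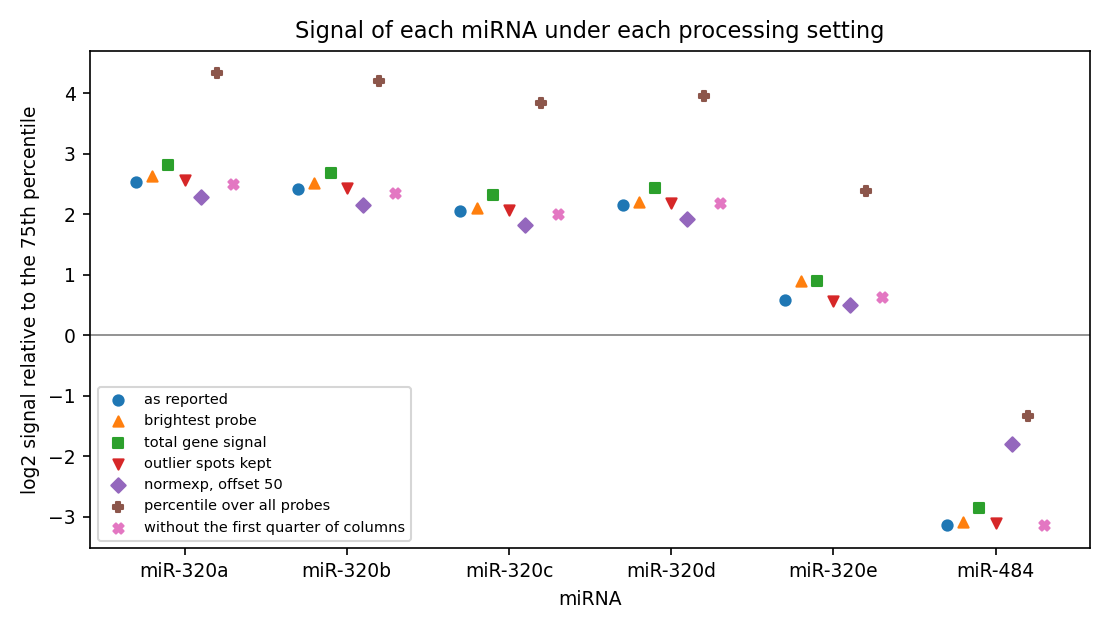
Log2 signal relative to the 75th percentile (vertical axis) of the 6 miRNAs (horizontal axis) under the reported setting and 6 others, 1 marker shape for each. miR-320a to miR-320e stay above 0 and miR-484 below 0 under every setting drawn, and the values lie highest when the percentile is taken over all probes.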

How the data were processed

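The data were mature miRNA levels of DLD-1 cells with the negative control plasmid, read on 1 array. The scanner file deposited by the authors holds spot intensity from Agilent Feature Extraction 11.0.1.1, with local background subtracted and flags set. The log2 values deposited by the authors were quantile normalised in GeneSpring GX, on arrays that are not named. Controls and outlier spots were removed, a floor of 1 was applied, and the log2 intensities were averaged first within a probe and then across the probes of each miRNA. The 75th percentile was taken over probes of detected miRNAs with at least 0.5 of their spots well above background. The members and lists were chosen with earlier results of these data known. Named were the 6 members, miRNAs sharing a seed, both arms of miR-17, listed mirtrons and snoRNA-overlapping miRNAs, miR-451a and the nearest neighbours in level. Of 8 markers of other cell types, 7 matched by name. Alternatives covered the probe summary, signal, outlier spots, scaling and detection. Leaving out columns 1 to 41 and the comparison of miR-320d with miR-320c were added after the data were examined. Python 3.11.15, numpy 2.4.6, pandas 2.3.3 and limma 3.58.1 (normexp, offset 50, on median signals) in R 4.3.3 were used. In a simulation on the real spot layout, a spot SD of 0.2 over 5893 probes was recovered as 0.199 and a column shift of -0.3 over 3799 probes as -0.301. The simulated spots had the same SD throughout, with no outliers and no background. The simulation therefore checks the calculation and not the quality of the array. The number of arrays limits the precision, and no p-value was computed.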

Additional observations from a re-analysis of the deposited data

How the results depend on the processing

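All 6 members were detected under each of the 4 detection criteria, and the counts of listed mirtrons (10 to 13, reported as 13) and of all human miRNAs (1138 to 1758, reported as 1448) stayed within 1.5 times the reported counts. Of the 2549 human miRNAs, 1448 carried the Detected flag, and 1272 had 0.5 or more spots of a probe well above background. For 1138 every spot of a probe was well above background, and for 1758 the software marked 0.5 or more as positive and significant. The count of 6 snoRNA-overlapping miRNAs was 3 when 0.5 or more spots of a probe had to be well above background and 2 when every spot had to be.

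A log2 signal was called moved when it changed by more than the SD between spots of a probe. The order of the members was the same under 5 alternatives. The percentile over all probes moves every signal alike and cannot change an order. With the percentile over all probes, the signals of miR-320a, miR-320b, miR-320c, miR-320d, miR-320e and miR-484 were 4.33, 4.2, 3.84, 3.95, 2.38 and -1.34, since dimmer probes enter the percentile. From the total signal, with the percentile over miRNAs, they were 2.81, 2.68, 2.32, 2.43, 0.9 and -2.85. With normexp, where adding 50 to every spot narrows ratios, they were 2.29, 2.16, 1.83 and 1.92 for miR-320a to miR-320d and -1.8 for miR-484, and the difference between miR-320a and miR-484 was 4.09 in place of 5.67. With the brightest probe alone the signals were 2.64 for miR-320a, 2.51 for miR-320b, 2.11 for miR-320c and 0.9 for miR-320e, the difference between miR-320e and miR-320a was -1.74 in place of -1.95, and the median percentile of the members was 92.5 in place of 93.5. Without columns 1 to 41 the signal was 2.36 for miR-320b and 2.0 for miR-320c, and the median spot SD of 0.069 was 0.047. With outlier spots kept that SD was 0.115.

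For miR-484 the signal over background is the limit, since its mean exceeded the negative controls' 99th percentile 2.289-fold. No paired analysis was possible because a lone array has no partner.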
